A study of Mus musculus with 6 samples.

Results

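The genes described here are 33 mouse genes of the tricarboxylic acid (TCA) cycle, of the entry of pyruvate into it and of the supply of glutamate and its partner keto acids, out of 54532 genes in the deposited table. They were taken from a list of symbols, and each symbol matched 1 row. RNA was sequenced from 6 samples of wild-type 3T3 cells, a mouse fibroblast line that the labels call adipocytes. The sources used here give neither the subline nor the differentiation protocol. Of the samples, 3 received the solvent DMSO and 3 received 200 µM baicalin, a plant flavone glucuronide. The sources used here do not give the treatment time. The labels do not say whether the 3 samples of a group were separate cultures, so every p rests on the spread between the samples alone, and that spread may be technical. The series title names metabolic reprogramming by the compound as its subject.

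The TCA cycle oxidises acetyl groups in the mitochondrial matrix and hands the electrons to the respiratory chain. Pyruvate enters the matrix through a carrier and is either oxidised to acetyl-CoA by the pyruvate dehydrogenase complex or carboxylated to oxaloacetate by pyruvate carboxylase. The complex is switched off by phosphorylation through 4 kinases, Pdk1 to Pdk4, and switched on again by the phosphatases Pdp1 and Pdp2. Transaminases and glutamate dehydrogenase connect the cycle to glutamate. In fat cells the cycle also exports citrate for fatty acid synthesis, and pyruvate carboxylase refills it.

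Total counts lay between 16730594 and 18326874 per library. The share of counts from the mitochondrial genome was 1.73% ± 0.14 in DMSO and 1.33% ± 0.06 in baicalin (n = 3 per group, SD). Of 11 fat cell markers, 4 stayed under 1 CPM (read counts scaled to library size, with TMM factors) in every library, namely Lep, Slc2a4, Cfd and Retn. The summed level of the 11 markers ran from 1804 to 1979 CPM in DMSO and from 803 to 818 CPM in baicalin, nearly all of it from Lpl and Fabp4. Adipoq, Plin1, Cidec, Fabp4, Lpl and Pparg were called lower. Cebpa was 1.60-fold higher but not called (edgeR's quasi-likelihood test, adjusted p = 0.0579), and the 4 markers under 1 CPM were not tested. Markers of fibroblasts and preadipocytes (7 genes) summed to between 15711 and 16515 CPM in DMSO and between 11852 and 12262 CPM in baicalin, with Col1a2 as the largest part (7964 and 5421 CPM on average). Of these 7 genes 5 were called lower, but Thy1 (2.13-fold) and Col3a1 (1.36-fold) were called higher. Markers of macrophages (5 genes) summed to between 22.1 and 24.4 CPM in DMSO and between 102 and 104 CPM in baicalin, mostly from Cd14, while Adgre1 and Ptprc stayed under 1 CPM in every library. The markers of brown fat cells, endothelium, epithelium and skeletal muscle, 3 genes each, all stayed under 1 CPM. The part of these shifts in the results below was not tested, and in bulk RNA fewer cells of a type cannot be told apart from less RNA per cell.

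Promoter windows are shown for 3 members that rose about 2-fold and whose windows hold a searched motif, the transaminase Got1, the mitochondrial phosphoenolpyruvate carboxykinase Pck2 and the kinase Pdk3. Windows run from 250 bases before to 50 after the start site and come from RefSeq on GRCm38.p6. Got1 is at chr19:43524556-43524855 on the minus strand, Pck2 at chr14:55540016-55540315 on the plus strand and Pdk3 at chrX:93832101-93832400 on the minus strand, each printed 5′ to 3′. Capitals mark GTTGCATCA in Got1 and GTTACATCA in Pck2, which are TGATGNAAN on the opposite strand, and ACGTG in Pdk3.
Got1: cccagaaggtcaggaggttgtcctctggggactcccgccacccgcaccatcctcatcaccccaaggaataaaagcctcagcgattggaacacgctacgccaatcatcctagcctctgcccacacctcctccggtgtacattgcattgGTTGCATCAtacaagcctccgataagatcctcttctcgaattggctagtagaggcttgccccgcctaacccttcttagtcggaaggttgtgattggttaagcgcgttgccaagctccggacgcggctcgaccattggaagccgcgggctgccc
Pck2: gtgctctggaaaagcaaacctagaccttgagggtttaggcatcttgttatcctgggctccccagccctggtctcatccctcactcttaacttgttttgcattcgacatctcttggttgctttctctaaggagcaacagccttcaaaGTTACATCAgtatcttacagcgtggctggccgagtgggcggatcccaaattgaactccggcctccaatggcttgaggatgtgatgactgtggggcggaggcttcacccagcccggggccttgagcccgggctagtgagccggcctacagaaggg
Pdk3: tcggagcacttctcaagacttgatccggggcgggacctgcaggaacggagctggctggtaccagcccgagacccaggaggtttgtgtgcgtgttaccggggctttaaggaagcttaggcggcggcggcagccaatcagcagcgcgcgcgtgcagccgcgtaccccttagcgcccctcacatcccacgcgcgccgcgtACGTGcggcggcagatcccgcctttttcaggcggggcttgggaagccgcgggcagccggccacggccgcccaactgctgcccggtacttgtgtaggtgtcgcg

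TGATGNAAN is the element bound by ATF4, the transcription factor of the amino acid response, and ACGTG is the core of the hypoxia response element. The first match begins 103 bases before the start site in Got1 and 104 bases before it in Pck2, and the match in Pdk3 begins 53 bases before its start site. Both strands were searched, so that CACGTG counts on each strand. Of the 33 members 31 had a window, 40 windows in all, some of which overlap, and Idh3a and Pdp1 had none in the table. TGATGNAAN was found in 2 of these 40 windows (5.0%), against 3.95% of all 32851 windows. ACGTG was found in 13 windows (32.5%) of 8 members, against 19.6% of all windows, and 6 of the 13 are Ogdh windows. The antioxidant response core TGACNNNGC was in 6 windows (15.0%), against 12.4% of all. The oestrogen-related receptor element TCAAGGTCA was in no member window and in 0.423% of all windows. The windows shown were chosen for both the rise and the motif. Both windows of Pdk1, the member that rose most, hold none of the searched motifs, whereas ACGTG is also in a window of Pdk2, which was called lower, and in that of Pdp2, which was not called. A match describes these letters only.

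With baicalin, 19 of the 33 genes were higher and 6 lower, whereas 8 were not called (edgeR's quasi-likelihood test, adjusted p under 0.05 after Benjamini and Hochberg). All 33 had enough reads to test. The shifts were widespread in these cells. Of all 13728 genes tested 67.7% were called, 33.6% as higher and 34.1% as lower, against 75.8%, 57.6% and 18.2% of the members. The median log2 fold change (baicalin over DMSO) was 0.22 over the members and 0.00 over all tested genes. For 27 of the members (81.8%) the CPM ranges of the groups were apart, against 70.2% of all tested genes. At least 2-fold changes were called for Pdk1, Pdk3, Pck2 and Pdp1, and for 15.0% of all tested genes. With scaling by library size alone the median over all genes moved to -0.13 on the log2 scale, and the calls were 15 members higher and 11 lower. Of the called members 57.7% instead of 76.0% were then higher, and of all called genes 37.4% instead of 49.7%.

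**Figure D1:**
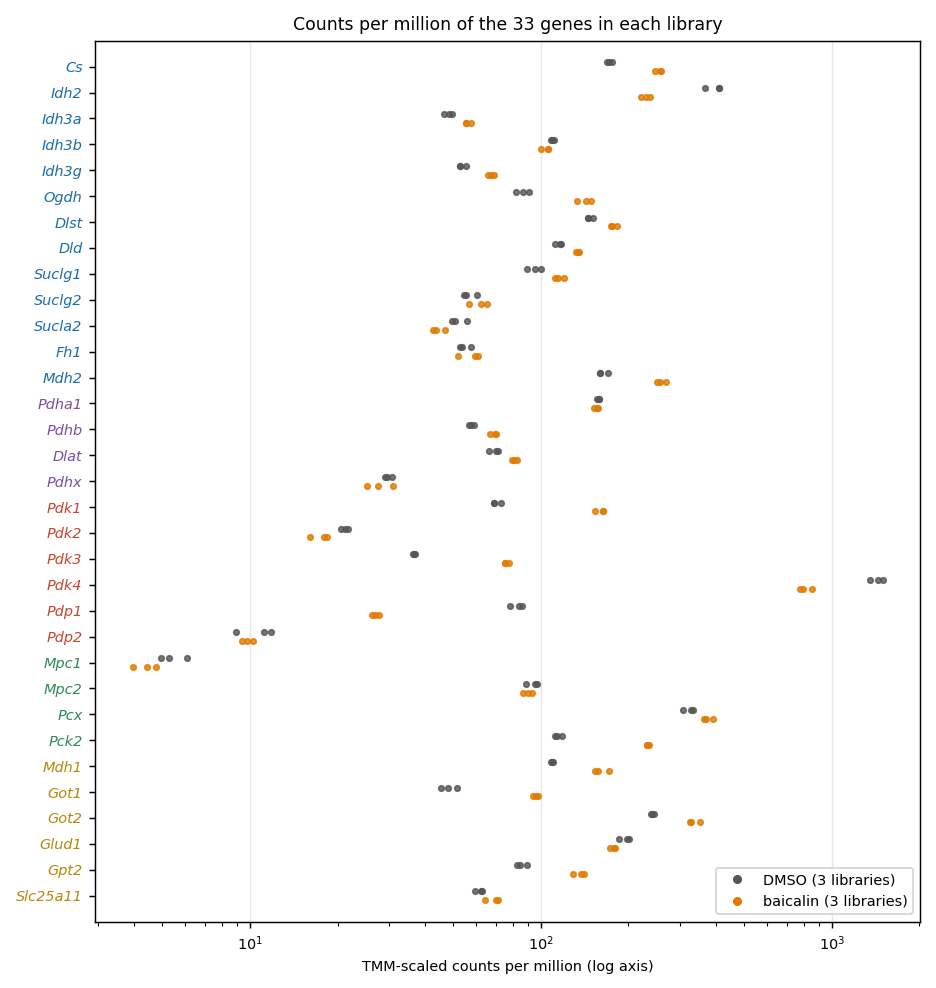
Each point is the TMM-scaled CPM of a gene in a library (log axis), with the 3 DMSO libraries in grey above the 3 baicalin libraries in orange, and genes coloured by role. Pdk4 is the most abundant by count (777 to 1497 CPM) and Mpc1 the least (3.95 to 6.07 CPM), and the groups do not overlap for 27 of the 33 genes.

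**Figure D2:**
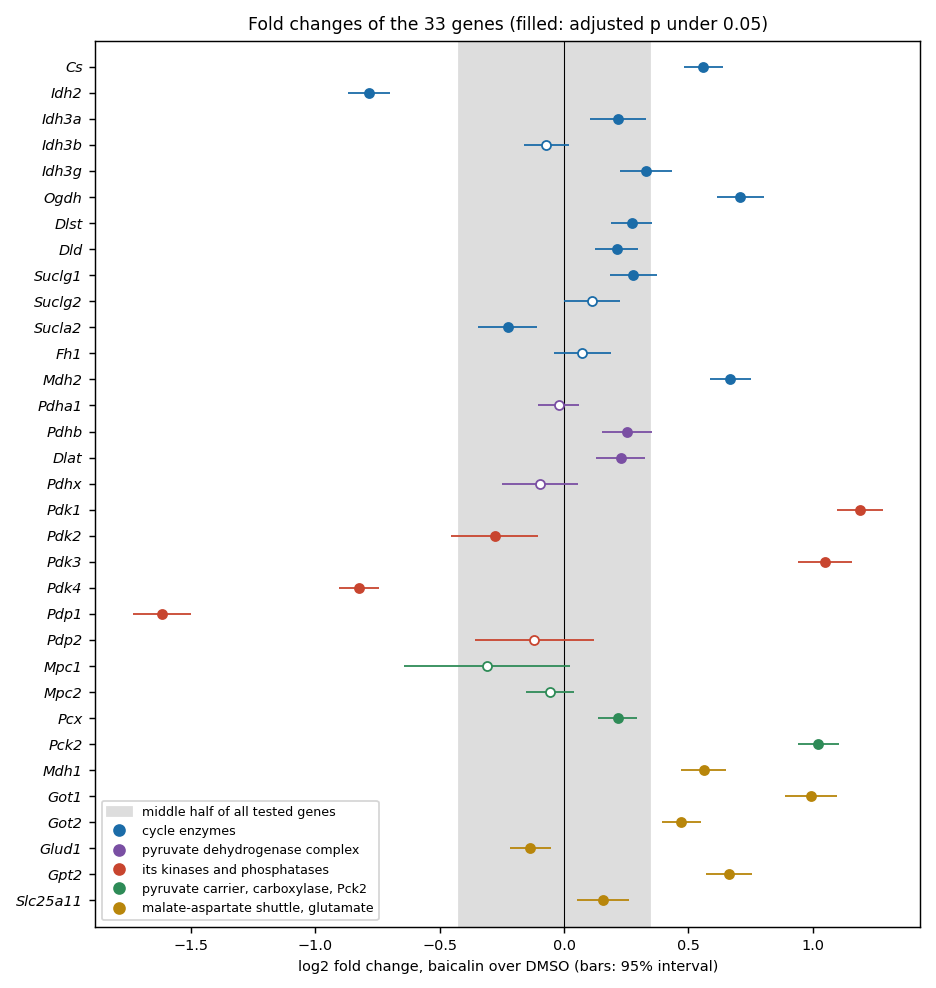
Log2 fold changes with 95% intervals from the fit over all genes, filled where the adjusted p is under 0.05. The grey band spans the 25th to the 75th percentile of all tested genes (-0.42 to 0.35), and Pdp1, Pdk4 and Idh2 lie below it while Pdk1, Pdk3, Pck2 and Got1 lead above it.

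The kinases and phosphatases of pyruvate dehydrogenase held the largest changes in both directions. Pdk1 and Pdk3 rose about 2-fold, Pdk4 and Pdk2 fell, and the phosphatase Pdp1 fell 3.07-fold. Pdk1 (ENSMUSG00000006494, mm10 chromosome 2, 71873224 to 71903858), a kinase known to be induced by hypoxia, stood at 69.0, 69.0 and 72.9 CPM in DMSO and at 154, 163 and 164 CPM in baicalin. Every baicalin library was above every DMSO library, with a 2.28-fold rise (log2 fold change 1.19, SE 0.05, adjusted p = 3.36e-29) that stands at percentile 96.1 of all tested genes. Pdk3 (chromosome X, 93764607 to 93832201), a kinase that pyruvate inhibits only weakly, stood at 36.5, 36.9 and 36.6 CPM in DMSO and at 77.6, 74.97 and 75.02 CPM in baicalin. Its DMSO libraries were close together and all lay below the baicalin libraries, a 2.07-fold rise (log2 fold change 1.05, SE 0.05, adjusted p = 1.33e-23).

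Pdk4 (chromosome 6, 5483351 to 5496309), the kinase raised by fasting and fatty acids, was at 1497, 1351 and 1443 CPM in DMSO and at 852, 777 and 798 CPM in baicalin. All baicalin libraries were lower, and the gene fell 1.77-fold (log2 fold change -0.82, SE 0.04, adjusted p = 7.93e-23). Pdk2, the widely expressed kinase, was at 20.6, 21.2 and 21.7 CPM in DMSO and at 18.4, 16.0 and 17.9 CPM in baicalin. The groups did not overlap, but the fall was small (log2 fold change -0.28, SE 0.09, adjusted p = 0.00438), and its call was lost without baicalin replicate 2 (adjusted p = 0.0583). With length and GC trends removed it was -0.52.

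Pdp1 (ENSMUSG00000049225, chromosome 4, 11958184 to 11966452), the calcium-stimulated phosphatase that reactivates the complex, was at 86.4, 78.0 and 84.2 CPM in DMSO and at 26.4, 26.9 and 27.7 CPM in baicalin. The baicalin libraries lay close together at about the same level, far below the lowest DMSO library. The log2 fold change was -1.62 (SE 0.06, adjusted p = 1.53e-30), at percentile 4.0 of all tested genes, and -1.29 with length and GC trends removed. Pdp2, the other catalytic phosphatase subunit, was at 11.2, 11.8 and 8.99 CPM in DMSO and at 10.2, 9.77 and 9.38 CPM in baicalin. Those groups overlapped, and Pdp2 was not called (log2 fold change -0.12, 95% interval -0.36 to 0.12, adjusted p = 0.384).

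Per length, on the FPKM scale, Pdk4 was the most abundant of the 4 kinases in both groups, at 411 ± 22 FPKM in DMSO and at 235 ± 12.5 FPKM in baicalin (n = 3 per group, SD). It was followed by Pdk3, at 14.4 ± 0.08 and 30.2 ± 0.75 FPKM, Pdk1, at 9.10 ± 0.28 and 20.97 ± 0.62 FPKM, and Pdk2, at 6.74 ± 0.15 and 5.62 ± 0.43 FPKM. Neighbours in this order were further apart than their SDs in both groups. The share of Pdk4 in the summed FPKM of the 4 kinases was 93.5%, 92.8% and 93.1% with DMSO and 81.3%, 80.01% and 80.2% with baicalin. Over the same libraries the share of Pdk3 went from 3.28% ± 0.18 to 10.4% ± 0.22 and that of Pdk1 from 2.07% ± 0.11 to 7.21% ± 0.51. The summed FPKM of the kinases was 441 ± 21.6 in DMSO and 291 ± 13.0 in baicalin, and that of the phosphatases 20.4 ± 0.91 and 7.85 ± 0.07. The ratio of these sums was 21.6 ± 0.20 in DMSO and 37.1 ± 1.69 in baicalin (n = 3 per group, SD). These shares and ratios are descriptions of transcript levels, without a test, and say nothing of protein or phosphorylation.

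**Figure D3:**
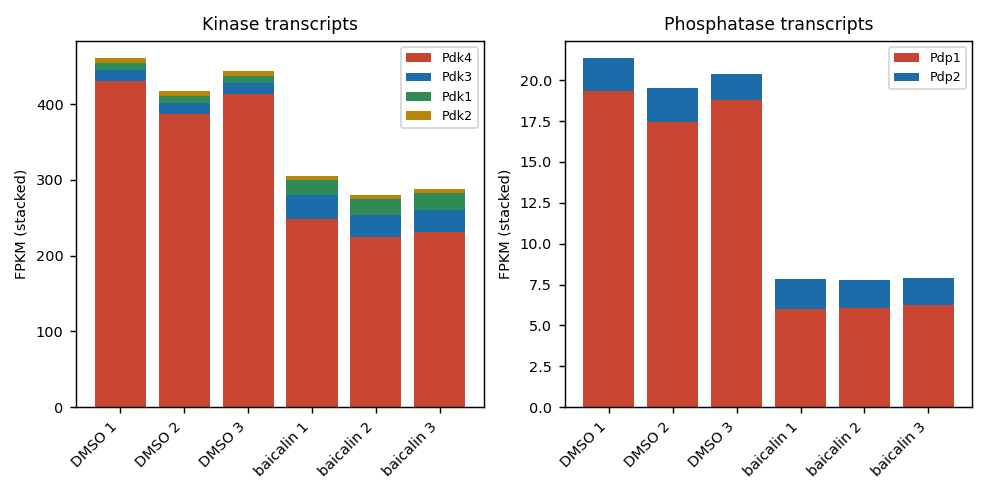
Stacked bars give the authors' FPKM of the 4 kinases (left) and the 2 phosphatases (right) in each library, on separate axes from 0. Pdk4 makes up most of every kinase bar and Pdp1 most of every phosphatase bar, and both shrink in the baicalin libraries while the Pdk1 and Pdk3 segments grow.

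The complex that these enzymes control moved little. Of its 4 own subunit genes 2 rose by under 1.2-fold and 2 were not called. Pdhb, the beta subunit of the first enzyme, was at 57.7 ± 1.05 CPM in DMSO and at 68.8 ± 1.91 CPM in baicalin (n = 3 per group, SD, log2 fold change 0.25, adjusted p = 2.09e-05). Dlat, the acetyltransferase core, was at 69.2 ± 2.61 and 81.0 ± 1.503 CPM (log2 fold change 0.23, adjusted p = 6.35e-05), a call that was lost with library-size scaling (adjusted p = 0.0678). Pdha1, the alpha subunit that carries the regulatory phosphorylation sites, was at 158, 158 and 156 CPM in DMSO and at 152, 158 and 156 CPM in baicalin. Its groups overlapped, and the 95% interval of the log2 fold change ran from -0.10 to 0.06 (adjusted p = 0.663). Pdhx, which anchors the third enzyme of the complex, was at 29.8 ± 0.83 and 27.9 ± 2.87 CPM and was not called either (95% interval -0.25 to 0.06, adjusted p = 0.257). With library-size scaling Pdha1 (-0.15) and Pdhx (-0.22) were both called lower. Exons of Pdha1 overlap those of the opposite-strand gene Map3k15 over 603 bp, but that gene had only 0.46% as many reads.

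Transcripts for the import of pyruvate were not called in the fit reported here, while Pck2 and, by much less, Pcx rose. Pck2 (ENSMUSG00000040618, chromosome 14, 55540266 to 55551242), which makes phosphoenolpyruvate from oxaloacetate in the matrix, stood at 118, 112 and 114 CPM in DMSO and at 232, 235 and 232 CPM in baicalin. The groups were far apart, with a 2.03-fold rise (log2 fold change 1.02, SE 0.04, adjusted p = 1.52e-28). The cytosolic form of that enzyme, Pck1, was without reads in DMSO and at most 0.058 CPM in a baicalin library. Pcx, pyruvate carboxylase, was among the most abundant members per length at 70.2 ± 3.10 FPKM in DMSO and at 82.3 ± 3.54 FPKM in baicalin (n = 3 per group, SD). It rose by a log2 fold change of 0.22 (adjusted p = 3.90e-06), a call lost with length and GC trends removed (0.08, adjusted p = 0.0561).

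Both subunits of the mitochondrial pyruvate carrier missed the threshold in the fit reported here. Mpc2 was at 96.8, 88.9 and 95.6 CPM in DMSO and at 87.0, 90.2 and 93.1 CPM in baicalin, overlapping ranges (log2 fold change -0.06, adjusted p = 0.285). Its direction depended on the correction, since it was called lower with library-size scaling (-0.18) and higher with length and GC trends removed (0.21). Mpc1 had only 90 to 112 reads in the DMSO libraries and 70 to 79 in the baicalin libraries. Its groups did not overlap (log2 fold change -0.31, 95% interval -0.64 to 0.03, adjusted p = 0.0962). That result was not stable, since Mpc1 was called lower with library-size scaling. It was also called lower with length and GC trends removed, with or without a replicate block. Over the other fits its lowest log2 fold change was -0.47. The value of Mpc1 is uncertain, because its transcript matches the copy Mpc1-ps over 261 bases without a mismatch, and that copy had 170 to 216 reads per DMSO library and 168 to 199 per baicalin library. An opposite-strand RNA, 4930506C21Rik, also shares 480 bp of exon with Mpc1 and had 9.63% as many reads.

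Among 13 genes of the cycle itself 8 rose (61.5%), 2 fell (15.4%) and 3 were not called. Of all tested genes 33.6% were called higher and 34.1% lower. The rises were largest at the start and the end of the cycle and at the oxoglutarate step. Cs, citrate synthase, was at 176, 169 and 172 CPM in DMSO and at 258, 257 and 246 CPM in baicalin. Mdh2, the matrix malate dehydrogenase that regenerates its substrate oxaloacetate, was at 169, 160.2 and 159 CPM in DMSO and at 270.2, 256 and 251 CPM in baicalin. Both were higher in every baicalin library, by 1.47-fold for Cs (log2 fold change 0.56, SE 0.04, adjusted p = 3.83e-18) and 1.59-fold for Mdh2 (0.67, SE 0.04, adjusted p = 1.16e-20).

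Ogdh, the first enzyme of the 2-oxoglutarate dehydrogenase complex, was at 86.6, 82.4 and 91.0 CPM in DMSO and at 149, 133 and 143 CPM in baicalin. The groups did not overlap, with a 1.63-fold rise (log2 fold change 0.71, SE 0.05, adjusted p = 6.85e-19). The other subunits of that complex rose less. Dlst, its succinyltransferase core, had a log2 fold change of 0.27 (adjusted p = 8.27e-08), and Dld, the dehydrogenase shared with the pyruvate complex, had 0.21 (adjusted p = 2.61e-05). The 95% interval of Ogdh (0.61 to 0.80) lay above those of Dlst (0.19 to 0.35) and Dld (0.13 to 0.30). With length and GC trends removed the values were 0.63 for Ogdh, 0.45 for Dlst and 0.41 for Dld, and the call of Dld was lost with library-size scaling (0.08, adjusted p = 0.0712).

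The isocitrate dehydrogenases among the members were split. Idh2 (ENSMUSG00000030541, chromosome 7, 80094846 to 80115392), the NADP-dependent enzyme of the matrix, was at 409, 366 and 409 CPM in DMSO and at 237, 221 and 230.1 CPM in baicalin. Every baicalin library was below every DMSO library, a 1.72-fold fall (log2 fold change -0.78, SE 0.04, adjusted p = 1.72e-21). The NAD-dependent enzyme is built from Idh3a, the catalytic subunit, and Idh3b and Idh3g. Idh3a was at 48.1 ± 1.53 and 55.9 ± 1.22 CPM (n = 3 per group, SD, log2 fold change 0.22, adjusted p = 0.000602) and Idh3g at 53.7 ± 1.54 and 67.4 ± 1.56 CPM (0.33, adjusted p = 2.07e-07). Idh3b, at 109 ± 1.61 and 104 ± 3.41 CPM, was not called (-0.07, adjusted p = 0.157), although its groups did not overlap. Its exons share 5 bp with those of the opposite-strand gene Nop56. Idh3b was called lower with library-size scaling (-0.20) and with length and GC trends removed (-0.15). The call of Idh3a was lost with library-size scaling (adjusted p = 0.155), and Idh3g stood at 0.13 with length and GC trends removed. Per length the share of Idh2 in the sum of Idh2 and Idh3a was 94.1% ± 0.51 in DMSO and 88.9% ± 0.20 in baicalin (n = 3 per group, SD), a description without a test.

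The subunits of succinyl-CoA synthetase did not move together. Suclg1, the alpha subunit common to both forms of the enzyme, rose by a log2 fold change of 0.28 (adjusted p = 8.52e-07). Sucla2, the beta subunit of the ATP-forming enzyme, was at 55.5, 49.4 and 50.8 CPM in DMSO and at 43.5, 46.9 and 42.6 CPM in baicalin. All baicalin libraries were lower, and Sucla2 fell by 0.23 on the log2 scale (SE 0.06, adjusted p = 0.000816). Suclg2, the beta subunit of the GTP-forming enzyme, was at 60.5, 55.4 and 54.3 CPM in DMSO and at 65.1, 56.7 and 62.3 CPM in baicalin. Its groups overlapped, and it was not called (log2 fold change 0.11, adjusted p = 0.0731). It was called higher without DMSO replicate 1 (0.17), without baicalin replicate 2 (0.18), with no filter on low counts (0.15) and with length and GC trends removed (0.20), and stood at -0.016 with library-size scaling. A copy, Gm15163, matches Suclg2 over 1302 bases at 98.9% identity and had 6.63% as many reads. Per length the share of Suclg2 in the 2 beta subunits was 48.4%, 49.1% and 48.0% in DMSO and 56.4%, 51.0% and 55.7% in baicalin.

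Fh1, fumarase, was at 54.5 ± 2.44 CPM in DMSO and at 57.4 ± 4.74 CPM in baicalin (n = 3 per group, SD) and was not called (log2 fold change 0.07, adjusted p = 0.259). It was called higher without baicalin replicate 3 (0.15), and its sign turned with library-size scaling (-0.05) and with length and GC trends removed (-0.02).

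Both transaminases of the malate-aspartate shuttle and both of its malate dehydrogenases, Mdh1 and the Mdh2 described with the cycle, rose, as did the alanine transaminase Gpt2, while glutamate dehydrogenase fell slightly. The shuttle carrier Slc25a11 was also called higher, but its sign turned with length and GC trends removed. The shuttle carries reducing equivalents from cytosolic NADH into the matrix. Got1 (ENSMUSG00000025190, chromosome 19, 43499752 to 43524605), the cytosolic aspartate transaminase, was at 47.8, 45.4 and 51.6 CPM in DMSO and at 96.5, 97.9 and 93.6 CPM in baicalin. The groups were well apart, with a 1.99-fold rise (log2 fold change 0.99, SE 0.05, adjusted p = 1.95e-23). Got2, its mitochondrial counterpart, was at 245, 241 and 239 CPM in DMSO and at 352, 329 and 324 CPM in baicalin, a 1.39-fold rise without overlap (log2 fold change 0.47, SE 0.04, adjusted p = 1.64e-15). The 95% interval of Got1 (0.89 to 1.10) lay above that of Got2 (0.39 to 0.55), and per length the share of Got1 in the sum of both was 27.5% ± 1.43 in DMSO and 35.2% ± 0.96 in baicalin (n = 3 per group, SD).

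Mdh1, the cytosolic malate dehydrogenase, was at 110.0, 108 and 109 CPM in DMSO and at 172, 154 and 157 CPM in baicalin. It rose 1.48-fold in non-overlapping groups (log2 fold change 0.56, SE 0.04, adjusted p = 3.10e-16), and its share in the summed FPKM of Mdh1 and Mdh2 stayed close, at 48.1% ± 0.68 and 46.3% ± 0.75. Exons of Mdh1 overlap those of the opposite-strand gene Wdpcp over 52 bp, which had 4.04% as many reads. Slc25a11, the carrier that exchanges malate for 2-oxoglutarate, rose by a log2 fold change of 0.16 (adjusted p = 0.00645). That direction was not stable, since it stood at 0.03 with library-size scaling (adjusted p = 0.612) and at -0.11 with length and GC trends removed (adjusted p = 0.0557), where a replicate block added to that fit made it a call (adjusted p = 0.0446). Its exons also overlap those of the opposite-strand gene Rnf167 over 189 bp, which had 38.6% as many reads, and the sources used here do not give the strand setting of the counting.

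Gpt2, the mitochondrial enzyme that forms alanine and 2-oxoglutarate from pyruvate and glutamate, was at 82.9, 89.6 and 84.6 CPM in DMSO and at 129, 141 and 137 CPM in baicalin. All baicalin libraries were higher (1.58-fold, log2 fold change 0.66, SE 0.05, adjusted p = 2.50e-18). Glud1, which releases ammonia from glutamate, was at 197, 186 and 200.4 CPM in DMSO and at 180.3, 178 and 172 CPM in baicalin. The groups did not overlap, and the fall was 1.10-fold (log2 fold change -0.14, SE 0.04, adjusted p = 0.00293). Its call was lost without baicalin replicate 3 (adjusted p = 0.0555), with no filter on low counts (0.0627) and on the log2(FPKM + 1) scale without a filter (0.0566).

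**Figure D4:**
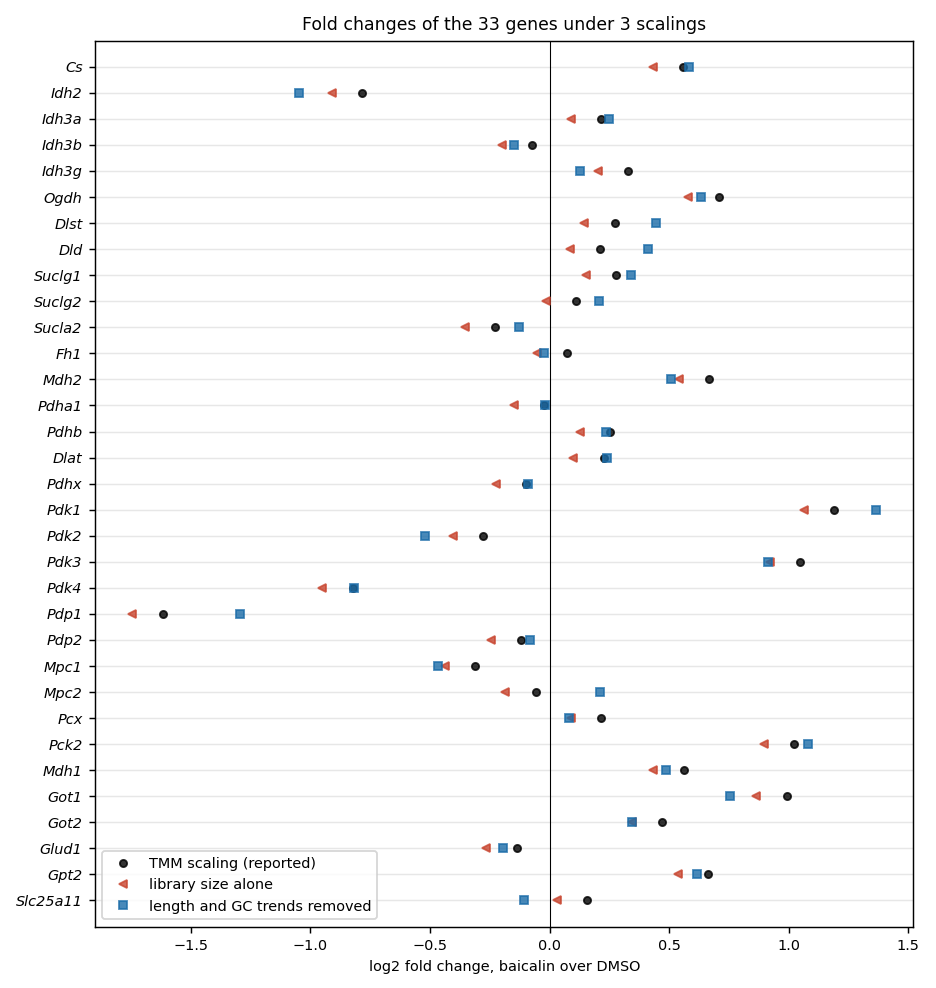
Log2 fold change of each gene with TMM scaling (black circles), with library size alone (red triangles) and with length and GC trends removed (blue squares). Signs turn for Suclg2 (-0.02) and Fh1 (-0.05) with library size alone and for Fh1 (-0.02), Mpc2 (0.21) and Slc25a11 (-0.11) with the trends removed, while Pdk1, Pdk3, Pck2, Got1, Pdk4, Idh2 and Pdp1 stay on their side.

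Around these genes, a list of 52 further genes of the cycle, of citrate, malate and lipoate use and of glutamine, glutamate and proline metabolism had 49 members with enough reads. Of these 22 were higher (44.9%) and 14 lower (28.6%), against 33.6% and 34.1% of all tested genes. In all 73.5% were called, against 67.7% of all tested genes. The median log2 fold change was 0.13, against 0.00 over all tested genes. Scaling by library size alone gave 16 higher and 16 lower, where 3472 of all tested genes were called higher and 5811 lower. The largest called changes among those with a mean of at least 5 CPM included the following. The cystine-glutamate exchanger Slc7a11 rose 9.81-fold (log2 fold change 3.29, or 3.90 with length and GC trends removed), the lactate dehydrogenase Ldha, which turns pyruvate into lactate, 3.24-fold, the glutamine-using asparagine synthetase Asns 3.17-fold, and the transaminase of serine synthesis Psat1 2.56-fold. In proline synthesis from glutamate Aldh18a1 went from 83.6 ± 0.52 to 239 ± 2.10 CPM (n = 3 per group, SD, 2.86-fold, adjusted p = 1.10e-35) and Pycr1 from 15.5 ± 0.39 to 38.2 ± 1.16 CPM (2.47-fold, adjusted p = 3.38e-21). Ppargc1a, a coactivator of mitochondrial genes, went from 8.39 ± 0.38 to 2.95 ± 0.59 CPM (2.85-fold lower, adjusted p = 1.59e-11).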

How the data were processed

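The deposited table holds, for 6 samples, read counts per gene made by the authors with featureCounts 1.5.0-p3 and FPKM values that the authors computed from counts and gene lengths, per the series design text. Reads were placed on mm10, as stated in the submitters' processing notes. Aligner, annotation and strand setting: not given in the sources used here. Libraries were made from poly-A RNA, per the labels' protocols. The edgeR version was 4.0.16 under R 4.3.3, run on the counts with filterByExpr, TMM factors and robust quasi-likelihood fits over all 13728 tested genes, treatment as the only term and Benjamini-Hochberg adjustment, and every adjusted p comes from it unless another is named. Standard errors are the log2 fold change over the root of F. CPM values use TMM factors, and levels between genes use FPKM. Coordinates, exon overlaps and lengths came from GENCODE M21, and copies of at least 95% identity over 200 bp from blastn 2.17.0. The test was checked on simulated counts in which few genes changed, unlike here, so the choice of scaling was not checked.

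Named are all 33 members and, of the neighbouring genes, the 8 with the largest absolute log2 fold change among those called with a mean of at least 5 CPM. One of the latter is not reported here. Members and lists were chosen with earlier results of these data known. Alternatives were DESeq2 1.42.0, limma-voom (limma 3.58.1), RLE factors, library size alone, no filter, a stricter filter (1 CPM or more throughout a group of 3), a replicate block, removal of lowess trends over exon length and GC content of transcripts (span 0.3), both together, limma-trend on the log2 of FPKM plus 1 or plus 0.1 (FPKM of 1 or more in 3 libraries), the former also unfiltered, and leaving out each library. Python 3.11.15 and matplotlib 3.10.9 made tables and figures.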

Additional observations from a re-analysis of the deposited data

How the results depend on the processing

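Under 18 alternatives, 18 of the 25 called members kept their direction and their call throughout. The exceptions were Idh3a, Dld, Dlat, Pdk2, Pcx, Glud1 and Slc25a11, with values given above. Members called higher numbered 15 to 20 and those called lower 5 to 11, the 11 with library size alone, which shifts all genes down. Neighbouring genes called lower numbered 14, and 6 on the log2(FPKM + 1) scale without a filter. Leaving out 1 library gave 19 or 20 members higher and 5 or 6 lower. Among members not called, signs turned for Suclg2 (-0.016) and Fh1 (-0.054) with library size alone, for Fh1 (-0.022) and Mpc2 (0.21) with length and GC trends removed, and for Pdha1 without a low-count filter (0.017) and without baicalin replicate 1, in a range of -0.023 to 0.0067 over the fits that leave out 1 library. Slc25a11 turned to -0.11 with the trends removed. The causes were not tested.

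With the replicate block 19 members were higher and 6 lower. Deviations of same-numbered libraries correlated at 0.05, 0.05 and -0.004, so the numbers were not taken as pairs. The block together with the length and GC trends gave 20 and 9, with Fh1 at -0.023, Mpc2 at 0.21 and Slc25a11 at -0.11.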
